A study of Caenorhabditis elegans with 10 samples.

Results

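The nhr genes of Caenorhabditis elegans encode nuclear hormone receptors, and their expression was compared between larvae depleted of PBRM-1 in the mesoderm and their controls. Members were all protein-coding genes named nhr with a number, apart from nhr-23 and nhr-25, that had at least 10 counts in at least 5 of the 10 libraries. Of 267 such genes in the count table, 222 met the count minimum, out of 46756 genes listed and 16873 that met the same minimum. Another 45 nhr genes fell below it. All 222 members were tested, 212 of them had at least 10 counts in every library, and no member met the minimum in one strain alone.

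A nuclear hormone receptor is a transcription factor with a zinc-finger domain that binds DNA and a ligand-binding domain that can respond to lipophilic molecules such as steroids, fatty acids and bile acid-like compounds. Nematodes carry an unusually large family, most of which descends from an ancestor related to HNF4, a receptor of liver and gut metabolism in mammals. A small group of C. elegans receptors has clear counterparts across animals, whereas many of the HNF4-related genes lie in arrays of neighbors. Among those with known functions, several adjust fat, propionate or methionine metabolism to diet in the intestine, and others act in developmental timing, organ formation or detoxification.

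The pbrm-1(TS-KO) strain carries pbrm-1(rd31), a loxP-flanked GFP fusion of pbrm-1, together with rdIs74, in which the hnd-1 promoter drives a GFP nanobody fused to ZIF-1 and, from the same transcript, Cre recombinase. The pbrm-1(control) strain carries the same pbrm-1(rd31) allele and rdIs79, in which the hnd-1 promoter drives ZIF-1 alone. In both strains the transgene is a single-copy insertion that also rescues an unc-119 mutation with the C. briggsae gene. PBRM-1 is the polybromo subunit of the PBAF chromatin remodeling complex. The hnd-1 promoter is active in embryonic mesoderm, including the precursors of body wall muscle and the somatic gonad, and some pbrm-1(TS-KO) larvae lack PBRM-1 in every cell because recombination also occurred in their mothers. RNA came from whole hermaphrodite L1 larvae grown at 20°C, hatched overnight without food, as 5 libraries of pbrm-1(TS-KO) and another 5 of pbrm-1(control), numbered 1, 4, 5, 6 and 7. Each number marks a culture day on which both strains were grown in parallel. Since RNA was taken from whole larvae, fewer cells that express a gene and less RNA per cell cannot be told apart.

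The pbrm-1(TS-KO) libraries held 35922561 to 46553938 counts and the pbrm-1(control) libraries 36354418 to 45126931. Levels are given as CPM, which are counts relative to the TMM-adjusted library size. The strain difference was tested with edgeR's quasi-likelihood test, and SE is the standard error of the log2 fold change. For pbrm-1 itself, counted over the whole gene although only its last exons are deleted, the range was 233 to 265 CPM in pbrm-1(TS-KO), against 224 to 286 CPM in pbrm-1(control), with a log2 fold change of -0.09 (SE 0.0642, edgeR adjusted p = 0.433). By exon, the paper reports that most of the deleted exons were significantly lower in pbrm-1(TS-KO). It also reports no visible PBRM-1::GFP in the precursors of the somatic gonad in such L1 larvae. Control replicate 5 stood apart. Its 10 epidermal marker genes summed to 1010.0 CPM, against 213 to 356 CPM in the other control libraries and 204 to 248 CPM in pbrm-1(TS-KO). In this library sqt-3 alone had 596 CPM, and dpy-10, dpy-7 and mlt-10 had 91.9, 67.5 and 58.6 CPM. The markers elt-3, elt-1, rol-6 and grd-10 lay within the range of the other control libraries. Results that rest on control replicate 5 are also given without it. Of the marker lists, body wall muscle had 4 of 10 genes called lower, intestine 2 of 9 called higher, germline 2 of 6 called higher, neurons 1 of 12 called higher and pharyngeal muscle 1 of 6 called lower. None of the 10 epidermal genes and none of the 5 yolk or sperm genes tested was called in edgeR's test, where 4 and 0 had an unadjusted p under 0.05 (1 and 0 were called by DESeq2), and the sperm genes msp-3 and msp-10 had no counts.

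Expression of the nhr genes differed little between strains, by about as much as that of all genes. The median size of the log2 fold change was 0.134 over the members and 0.135 over all genes tested. With Benjamini-Hochberg adjustment over all 16817 genes tested, edgeR called 9 of the 222 members higher in pbrm-1(TS-KO) and 2 lower, at an adjusted p of at most 0.05. That was 4.95% of the members, against 7.72% of all genes tested. By direction, 4.05% of the members were called higher, against 3.44% of all genes, and 0.901% were called lower, against 4.28% of all genes. The log2 fold changes of 206 members were smaller than 0.5 in size, and 4 members differed at least 2-fold in either direction.

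**Figure D1:**
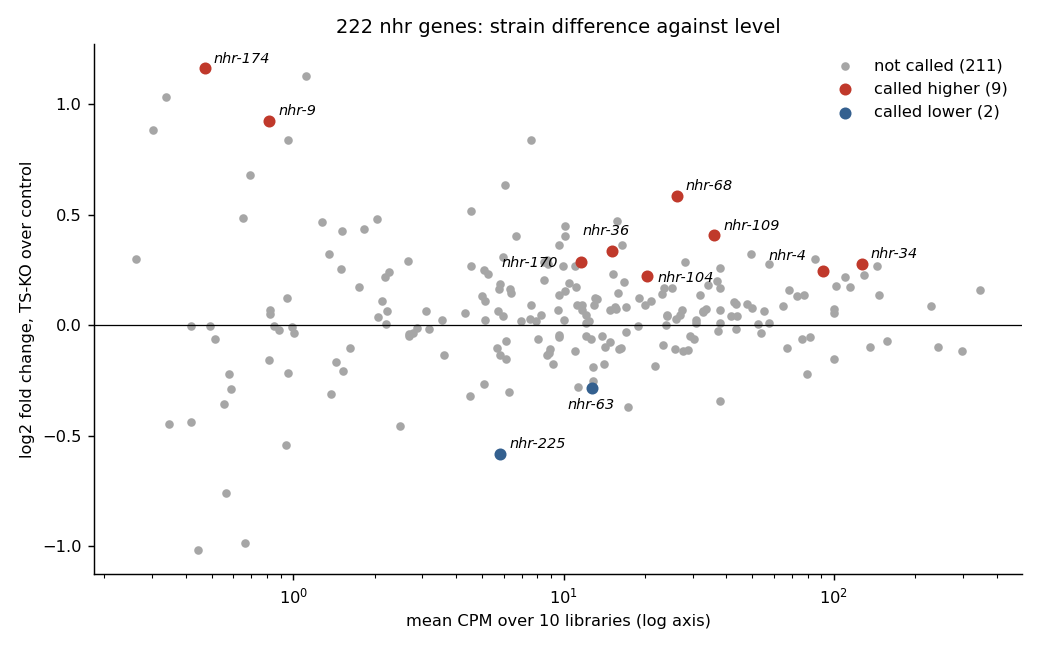
Log2 fold change (pbrm-1(TS-KO) over pbrm-1(control), vertical axis) of each of the 222 nhr genes against its mean CPM over the 10 libraries (log axis). The 9 genes called higher and 2 called lower by edgeR are colored and named, and most other members lie within 0.5 of zero.

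The only called gene on a list of receptors with functions known from other work was nhr-68 (WBGene00003658; chromosome V, 11573440 to 11575709 of WBcel235). NHR-68 acts with NHR-10 to activate the propionate shunt, a pathway that breaks down propionate when vitamin B12 is scarce. nhr-68 had 26.4, 26.4, 32.05, 32.1 and 40.1 CPM in pbrm-1(TS-KO) replicates 1, 4, 5, 6 and 7, against 17.9, 19.7, 25.1, 21.2 and 20.9 CPM in pbrm-1(control). Every pbrm-1(TS-KO) library lay above every control library, although the highest control library, replicate 5, lay just below the lowest pbrm-1(TS-KO) libraries, replicates 1 and 4. The log2 fold change was 0.58 (SE 0.123, edgeR adjusted p = 0.0161), and without control replicate 5 it was 0.66 (adjusted p = 0.0126). The call was kept in 14 of 15 fits that left out a library or a pair of libraries.

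nhr-225 (WBGene00020849; chromosome V, 2288153 to 2290474) had the smallest adjusted p of the family and was lower in pbrm-1(TS-KO). It had 4.08, 4.91, 4.64, 4.26 and 5.44 CPM in pbrm-1(TS-KO), against 6.43, 7.51, 7.10, 7.17 and 6.71 CPM in pbrm-1(control). The strains did not overlap, and the gene was lower in all 5 pairs of libraries. The log2 fold change was -0.58 (SE 0.0950, edgeR adjusted p = 0.00436), and each of 15 fits that left out libraries called it. The other gene called lower was nhr-63 (WBGene00003653; chromosome V, 16002588 to 16004735). It had 11.8, 12.04, 11.9, 11.03 and 10.9 CPM in pbrm-1(TS-KO), against 14.2, 15.5, 13.5, 13.6 and 13.4 CPM in pbrm-1(control), again without overlap. Its log2 fold change was -0.28 (SE 0.0628, edgeR adjusted p = 0.0204), and 9 of the 15 fits kept the call.

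Among the genes called higher, nhr-34 (WBGene00003627; chromosome IV, 9664360 to 9675672) was the most abundant. It had 155, 135, 132, 136 and 137 CPM in pbrm-1(TS-KO), against 119, 115, 109, 106 and 123 CPM in pbrm-1(control), with replicate 1 of pbrm-1(TS-KO) well above the rest. The strains did not overlap, and the log2 fold change was 0.28 (SE 0.0563, edgeR adjusted p = 0.0129), kept in 13 of 15 fits. nhr-34 shares 57 exonic bases with an antisense RNA, and reads of an antisense partner cannot be told apart from its own without strand.

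nhr-174 and nhr-9 showed the largest called differences and the lowest levels. nhr-174 (WBGene00008474; chromosome I, 12417386 to 12418800) had 0.497, 0.894, 0.702, 0.586 and 0.572 CPM in pbrm-1(TS-KO), against 0.184, 0.282, 0.287, 0.411 and 0.295 CPM in pbrm-1(control). All 5 pbrm-1(TS-KO) libraries were above all 5 control libraries, with a log2 fold change of 1.16 (SE 0.240, edgeR adjusted p = 0.0144). Its call was kept in 13 of 15 fits. nhr-9 (WBGene00003608; chromosome III, 7095462 to 7097205) had 0.944, 1.13, 1.404, 1.199 and 0.686 CPM in pbrm-1(TS-KO), against 0.827, 0.612, 0.550, 0.383 and 0.431 CPM in pbrm-1(control). The lowest pbrm-1(TS-KO) library, replicate 7, lay below control replicate 1, so the strains overlapped, while each of the 5 pairs was higher in pbrm-1(TS-KO). The log2 fold change of nhr-9 was 0.92 (SE 0.247, edgeR adjusted p = 0.0438), and 3 of 15 fits kept the call.

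The other genes called higher, nhr-109, nhr-36, nhr-170, nhr-4 and nhr-104, differed by log2 fold changes of 0.22 to 0.41. nhr-109 (WBGene00003699; chromosome II, 4433367 to 4435352) had 34.6, 47.9, 38.8, 36.1 and 48.2 CPM in pbrm-1(TS-KO), against 25.9, 35.1, 29.5, 31.6 and 33.1 CPM in pbrm-1(control). Both strains were higher on day 4 than on day 1, and the pairs differed in one direction although the strains overlapped. Its log2 fold change was 0.41 (SE 0.112, edgeR adjusted p = 0.0491). nhr-36 (WBGene00017198; chromosome V, 9258136 to 9261592) had 18.5, 15.8, 18.4, 16.9 and 14.3 CPM in pbrm-1(TS-KO), against 12.9, 14.2, 12.03, 13.2 and 14.2 CPM in pbrm-1(control). The strains were separated only by the small gap between replicate 7 of pbrm-1(TS-KO) and the highest control libraries, replicates 4 and 7. With replicate number as a block in edgeR, nhr-36 was not called (adjusted p = 0.0624, against 0.0323 without the block), while DESeq2 with the block called it (adjusted p = 0.0337).

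nhr-104 (WBGene00003694; chromosome IV, 4784469 to 4788692) had 22.3, 23.2, 22.9, 21.8 and 19.5 CPM in pbrm-1(TS-KO), against 18.8, 19.3, 19.4, 18.1 and 18.4 CPM in pbrm-1(control), without overlap. nhr-4 (WBGene00003603; chromosome IV, 9879329 to 9882152) had 106, 86.1, 103, 103.7 and 94.9 CPM in pbrm-1(TS-KO), against 91.8, 79.4, 78.6, 81.5 and 85.3 CPM in pbrm-1(control). The control level of nhr-4 on day 1 exceeded the pbrm-1(TS-KO) level on day 4, so the strains overlapped. nhr-170 (WBGene00008309; chromosome V, 18796061 to 18800826) had 12.8, 14.1, 12.2, 10.98 and 13.5 CPM in pbrm-1(TS-KO), against 10.3, 9.81, 9.95, 11.1 and 11.02 CPM in pbrm-1(control). It was the only called member whose pairs disagreed, being higher in 4 of 5 pairs, and it was not called with replicate number as a block in edgeR (adjusted p = 0.0680, against 0.0490 without).

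These calls depended on single libraries to different degrees. All 11 called members were also called by DESeq2, and 9 were called with the replicate block in edgeR. DESeq2 with the replicate block called 7 of them and did not call nhr-174, nhr-9, nhr-104 and nhr-170 (adjusted p = 0.0934, 0.0857, 0.0849 and 0.0925). Without control replicate 5, nhr-36, nhr-104, nhr-9, nhr-4, nhr-170 and nhr-109 had adjusted p of 0.0740, 0.0572, 0.0852, 0.101, 0.102 and 0.102 and were not called, whereas nhr-225, nhr-34, nhr-174, nhr-68 and nhr-63 were. nhr-170 and nhr-109 kept their calls in 1 of 15 fits each, nhr-104 in 2, nhr-4 in 3 and nhr-36 in 5. Leaving out 1 library also changed how many members were called, which was 11 with all libraries. It was 5 without pbrm-1(TS-KO) replicate 5 or replicate 6, 16 without pbrm-1(TS-KO) replicate 7, 6 without control replicate 4 or replicate 5, 5 without control replicate 6 and 7 without control replicate 7. Some of these genes share exonic bases with others. nhr-109 shares 53 exonic bases with its neighbor nhr-273 on the same strand, nhr-4 shares 60 with prp-18 on the opposite strand and nhr-63 shares 15 with a pseudogene, nhr-104 overlaps piRNA genes only, and nhr-225, nhr-68, nhr-36, nhr-170, nhr-174 and nhr-9 share none.

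**Figure D2:**
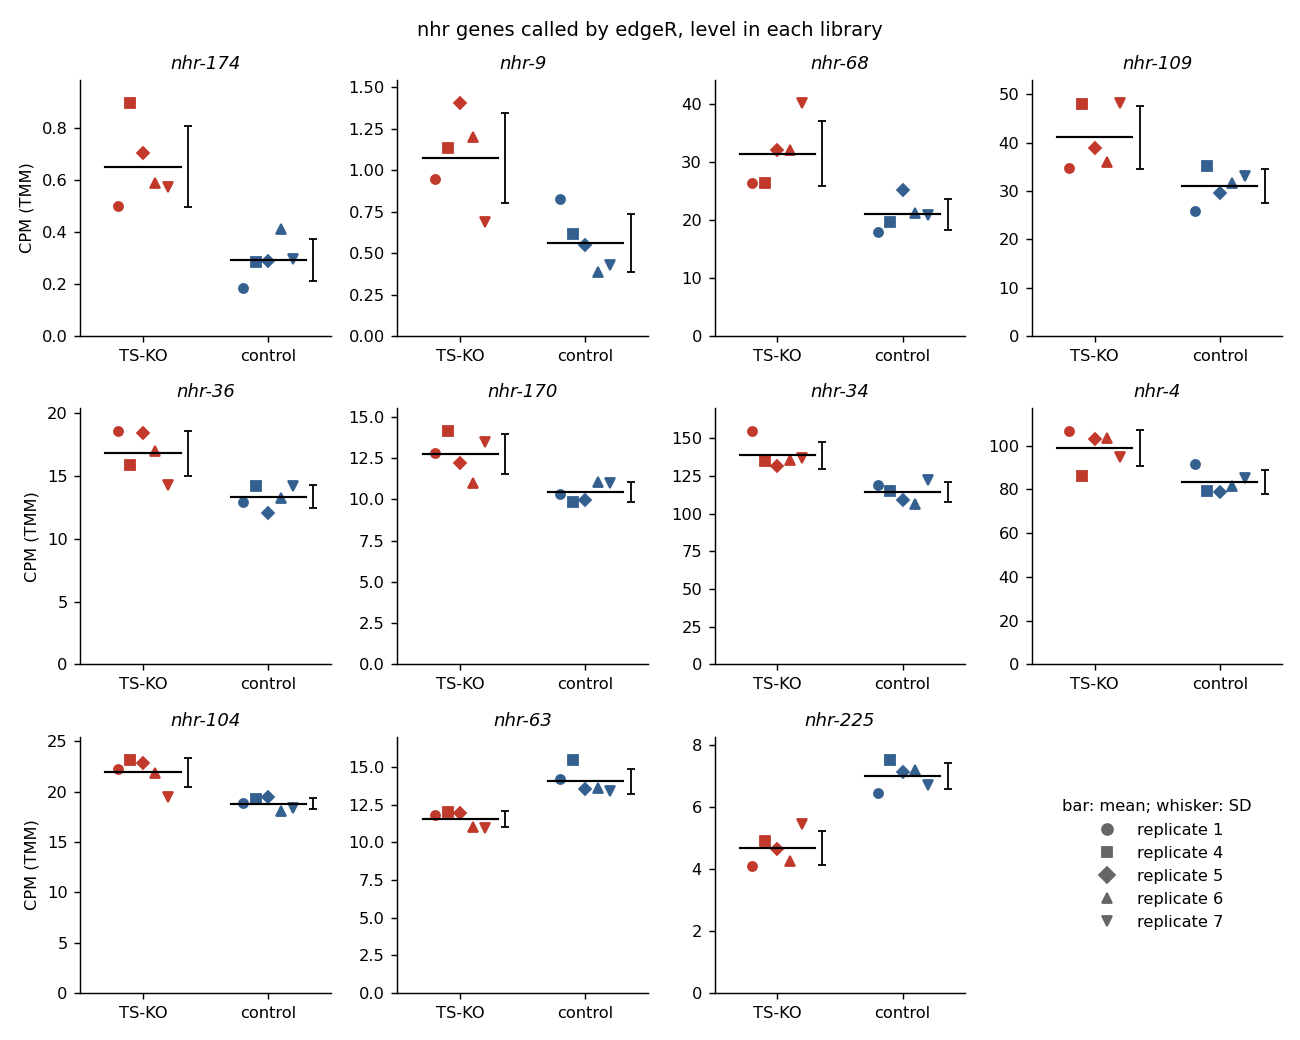
Level of the 11 called nhr genes (CPM after TMM, axes from 0) in each pbrm-1(TS-KO) library and each pbrm-1(control) library, with symbols for replicate number, a bar at the mean and a whisker of 1 SD (n = 5). The strains are separated in 7 of the 11 genes and overlap in nhr-9, nhr-109, nhr-170 and nhr-4.

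A small positive shift was seen over the family as a whole, beyond the called genes, but not in all of its parts. The log2 fold change was positive in 142 members and negative in 80, or positive in 64.0%, against 50.1% of all genes tested, and the median was 0.063, against 0.0005 over all genes. Of the 28 members under 1 CPM, 11 were positive (39.3%, median -0.0064), against 52.9% of all genes in that range. On the X chromosome, 8 of 21 members were positive (median -0.053). The median over members was 0.060, 0.057, 0.088, 0.076 and -0.013 in the pairs of replicates 1, 4, 5, 6 and 7, so it was positive on 4 of 5 days. Summed over the 222 members, expression was 6227, 6265, 6120.0, 6118 and 6212 CPM in pbrm-1(TS-KO), against 5965, 5902, 5746, 5800.0 and 6075 CPM in pbrm-1(control). The summed level thus lay higher in every pbrm-1(TS-KO) library than in any control library, by 290.0 CPM between the means, of which the 11 called genes made up 65.3 CPM. The largest single part was the 37.9 CPM of nhr-88, which was not called. At an unadjusted p under 0.05 there were 34 positive and 14 negative members, or 48 of 222, against 11.2% positive, 12.9% negative and 24.1% in either direction among all genes.

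Genes whose strains did not overlap made up a smaller share of the members than of all genes, in both directions. In 7 members the lowest pbrm-1(TS-KO) library was above the highest control library, and in 5 the reverse held, or 12 of 222. These were 3.15%, 2.25% and 5.41% of the members. Among all genes tested, 4.35% were higher and 4.91% lower without overlap, or 9.26% in either direction. Besides the called nhr-34, nhr-36, nhr-68, nhr-104 and nhr-174, the higher ones were nhr-130 and nhr-230. The lower ones were nhr-225 and nhr-63, and the uncalled nhr-13, nhr-117 and nhr-137. nhr-117, nhr-130 and nhr-230 are named here because of this count, after their values were seen.

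Receptors with functions known from other work mostly did not pass edgeR's test, in which nhr-68 was the only one called among the 23 members of a list of 24 (nhr-111, of the Tailless class, had too few counts). Of the 9 that act in metabolism, 7 had positive log2 fold changes, with a median of 0.14. In this group 6 had an unadjusted p under 0.05, 1 was called by edgeR, 2 with the replicate block, 3 by DESeq2 and 6 by limma-voom. Over all genes tested, these shares were 24.1%, 7.72%, 10.9%, 10.8% and 17.2%, in the same order. nhr-10, the partner of nhr-68 in the propionate shunt, had 74.7, 85.6, 81.0, 80.7 and 82.9 CPM in pbrm-1(TS-KO), against 73.8, 74.98, 69.6, 72.7 and 77.1 CPM in pbrm-1(control). It was higher in all 5 pairs, but the ranges overlapped and it was not called (log2 fold change 0.14, standard error 0.0471, adjusted p = 0.102 in edgeR's test). nhr-114, which activates genes of the methionine and S-adenosylmethionine cycle, ran the other way, with 31.4, 35.8, 28.4, 30.0 and 41.1 CPM in pbrm-1(TS-KO), against 38.8, 44.1, 44.9, 42.0 and 41.5 CPM in pbrm-1(control). It was lower in all 5 pairs, by little on day 7, with a log2 fold change of -0.34 and an adjusted p of 0.0511 in edgeR's test, just above the threshold. nhr-114 was called with the replicate block (adjusted p = 0.0405) and by DESeq2 (adjusted p = 0.0155).

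The regulators of fat metabolism showed small differences. nhr-49, which drives fatty acid desaturation and beta-oxidation, had 235.2 ± 15.1 CPM in pbrm-1(TS-KO) and 221.8 ± 11.6 CPM in pbrm-1(control) (SD, n = 5 each), with a log2 fold change of 0.09 with overlapping ranges (edgeR adjusted p = 0.369). nhr-80, which acts on the same desaturases, had a value of 0.02 on the log2 scale (adjusted p = 0.874), a sign that turned when some libraries were left out. The NHR-49 partners nhr-13 and nhr-66 lay on opposite sides, at -0.19 (adjusted p = 0.0782) and 0.17 (adjusted p = 0.125). nhr-13 had 11.2 to 13.2 CPM in pbrm-1(TS-KO), against 13.3 to 13.99 CPM in pbrm-1(control), without overlap. nhr-69, which works with the Smad protein DAF-8, had a log2 fold change of 0.32 in edgeR (adjusted p = 0.0553) and was called by DESeq2 (adjusted p = 0.0172).

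Among the receptors conserved across animals, none of 7 was called in edgeR's test, 2 had an unadjusted p under 0.05, 1 was called with the replicate block, 0 by DESeq2 and 2 by limma-voom. For all genes tested, the shares were 7.72%, 24.1%, 10.9%, 10.8% and 17.2%, in that order. The log2 fold changes of the 7 ran from -0.37 to 0.29, the highest being that of nhr-67, which is related to Tailless and acts in the anchor cell (adjusted p = 0.221). nhr-85, related to Rev-erb and E75 and active in developmental timing, had 13.6, 11.3, 11.3, 11.1 and 11.2 CPM in pbrm-1(TS-KO), against 15.3, 14.8, 12.6, 13.2 and 13.8 CPM in pbrm-1(control). It was lower in all 5 pairs, with a log2 fold change of -0.25 (adjusted p = 0.0809 in edgeR's test, 0.0413 with the replicate block). nhr-85 shares 835 exonic bases with npr-14 on the opposite strand, which leaves its counts uncertain. nhr-91, of the GCNF type, had 14.5 to 16.4 CPM in pbrm-1(TS-KO), against 17.3, 16.5, 30.8, 15.8 and 17.3 CPM in pbrm-1(control). The high value of nhr-91 was that of control replicate 5, and its log2 fold change was -0.37 with that library and -0.15 without it (adjusted p = 0.201 and 0.217). nhr-8, in cholesterol balance, nhr-41, of the TR2/TR4 type, and nhr-48, related to DAF-12, differed by at most 0.07 in size.

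Receptors of stress and development were not called either, and 0 of these 7 had an unadjusted p under 0.05. DESeq2 called 0 of them, and limma-voom called 2 of the developmental genes. Of all genes tested, 24.1% had an unadjusted p under 0.05 in edgeR, and DESeq2 and limma-voom called 10.8% and 17.2%. The 4 genes of stress and xenobiotic responses had log2 fold changes of -0.15 for nhr-176, needed to induce a cytochrome P450 gene by thiabendazole, 0.09 for the phenazine sensor nhr-86, 0.12 for the hypoxia-induced nhr-57 and 0.18 for nhr-14, which acts in iron uptake. Their adjusted p were between 0.287 and 0.633. Of the 3 developmental genes, nhr-40, which acts in embryos and muscle, and nhr-31, which is needed for the excretory cell tubule, had log2 fold changes of 0.22 and 0.27, and nhr-2, of the early embryo, had -0.54 at 0.764 CPM in pbrm-1(TS-KO) and 1.12 CPM in pbrm-1(control). Adjusted p for these 3 were 0.388, 0.355 and 0.269.

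**Figure D3:**
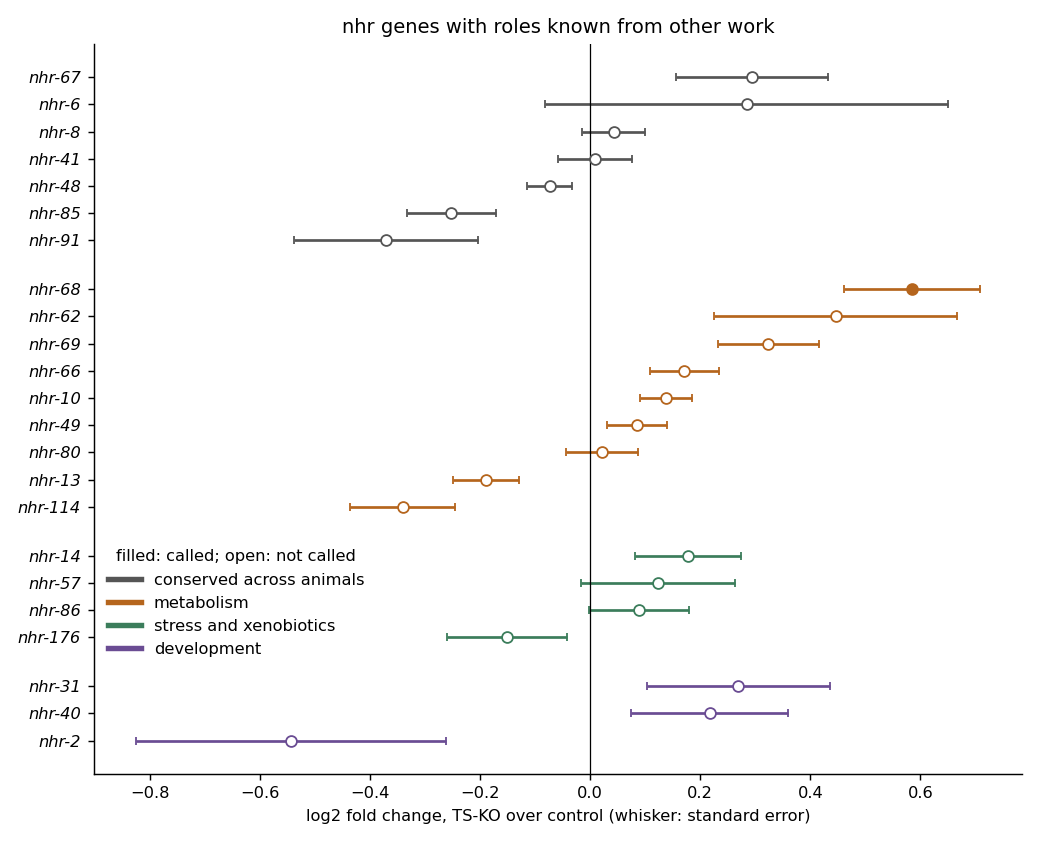
Log2 fold change (pbrm-1(TS-KO) over pbrm-1(control)) with its standard error for the 23 nhr genes of the list with roles known from other work, grouped by role. nhr-68, at 0.58, is the only filled (called) symbol.

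Besides nhr-114, nhr-69 and nhr-85, 9 members passed the threshold with DESeq2 or with the replicate block in edgeR but not in edgeR's fit without the block. With both of these alternatives nhr-99 was called (log2 fold change 0.47, adjusted p = 0.0514 in edgeR, 0.0325 with the block and 0.0100 with DESeq2), as were nhr-90 (0.26, adjusted p = 0.0596, 0.00958 and 0.0274) and nhr-232 (0.36, adjusted p = 0.0586, 0.00565 and 0.0186). nhr-232 shares 340 exonic bases with sri-18 on the opposite strand. nhr-18 was called with the block alone (0.30, adjusted p = 0.00883 with it and 0.115 without). It had 81.8, 109, 87.9, 85.99 and 105 CPM in pbrm-1(TS-KO), against 63.4, 90.6, 70.4, 78.3 and 79.9 CPM in pbrm-1(control), so both strains were high on day 4 and low on day 1 and each pair differed in the same direction. DESeq2 alone called nhr-198, nhr-158 and nhr-129 higher (log2 fold changes 1.13, 0.52 and 0.23 in edgeR, adjusted p = 0.0616, 0.0655 and 0.0695) and nhr-137 and nhr-141 lower (-0.28 and -0.30, adjusted p = 0.0633 and 0.0885). In total the block called 11 members higher and 4 lower, or 6.76%, against 4.80% of all genes called higher, 6.05% called lower and 10.9% in either direction. DESeq2 called 16 higher and 5 lower, or 9.50%, against 4.58%, 6.26% and 10.8% of all genes. Limma-voom with sample quality weights called 33 higher and 14 lower, or 21.2%, against 8.34%, 8.90% and 17.2%. nhr-189, at 0.393 CPM in pbrm-1(TS-KO) and 0.211 CPM in pbrm-1(control), was close to the threshold in edgeR (log2 fold change 0.88, adjusted p = 0.0536) and was called by neither DESeq2 nor the block.

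The members spanned a wide range of levels. The mean over the 10 libraries ran from 0.263 to 348 CPM, with a median of 11.2 CPM, against 10.7 CPM for all genes tested. Below 1 CPM there were 28 members, between 1 and 10 CPM 75, and at 10 CPM or more 119, of which 14 reached 100 CPM. Per kilobase of coding sequence, the median level was 8.70 CPM, with quartiles of 3.80 and 22.8 CPM. On this scale nhr-97 was highest at 226 CPM per kilobase, followed by nhr-88 at 187, nhr-1 at 167, nhr-49 at 152 and nhr-19 at 95.3. None of these 5 abundant receptors was called by edgeR or DESeq2, 1 had an unadjusted p under 0.05 and limma-voom called 1. Their log2 fold changes were between -0.12 and 0.16. nhr-88 had 351, 388, 336, 347 and 413 CPM in pbrm-1(TS-KO), against 349.8, 340.0, 309, 322 and 324 CPM in pbrm-1(control), higher in all 5 pairs with overlapping ranges (edgeR adjusted p = 0.147). nhr-97 had 261 to 309 CPM in pbrm-1(TS-KO), against 296 to 326 CPM in pbrm-1(control). Calls were made at all levels, 2 of 28 members under 1 CPM, 1 of 75 from 1 to 10 CPM and 8 of 119 at 10 CPM or more, against 4.27%, 6.89% and 9.45% of all genes in these ranges.

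By chromosome, the family was concentrated on V, with 146 of the 222 members, or 65.8%, against 22.4% of all protein-coding genes that met the count minimum. Of these 146, 92 had positive log2 fold changes (median 0.048), against 51.6% of all genes tested on V (median 0.009). Of the members on V, 3 were called higher and 2 lower, or 3.42%, against 4.15% of all genes there called higher, 5.28% called lower and 9.43% in either direction. The 28 members on chromosome IV were positive in 25 cases, with a median of 0.14, while 52.4% of all genes tested on that chromosome were positive, with a median of 0.010. In the pairs of replicates 1, 4, 5, 6 and 7, the median of these 28 was 0.120, 0.091, 0.225, 0.274 and -0.037. Their summed level overlapped between strains, with 1764, 1534, 1739, 1718 and 1529 CPM in pbrm-1(TS-KO), against 1663, 1504, 1493, 1477 and 1558 CPM in pbrm-1(control). Called genes on IV were nhr-34, nhr-4 and nhr-104, or 10.7%, against 8.28% of all genes there. On the X chromosome 8 of 21 members were positive (38.1%), close to the 37.7% of all X-linked genes tested, with medians of -0.053 and -0.058. No member on X was called in edgeR's test, where 3 had an unadjusted p under 0.05, while 0 were called with the replicate block, 1 by DESeq2 and 5 by limma-voom. Of all X-linked genes tested, edgeR called 7.82%, most of them lower (6.03%). These shares are descriptions, chosen after the values were seen, and were not tested.

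**Figure D4:**
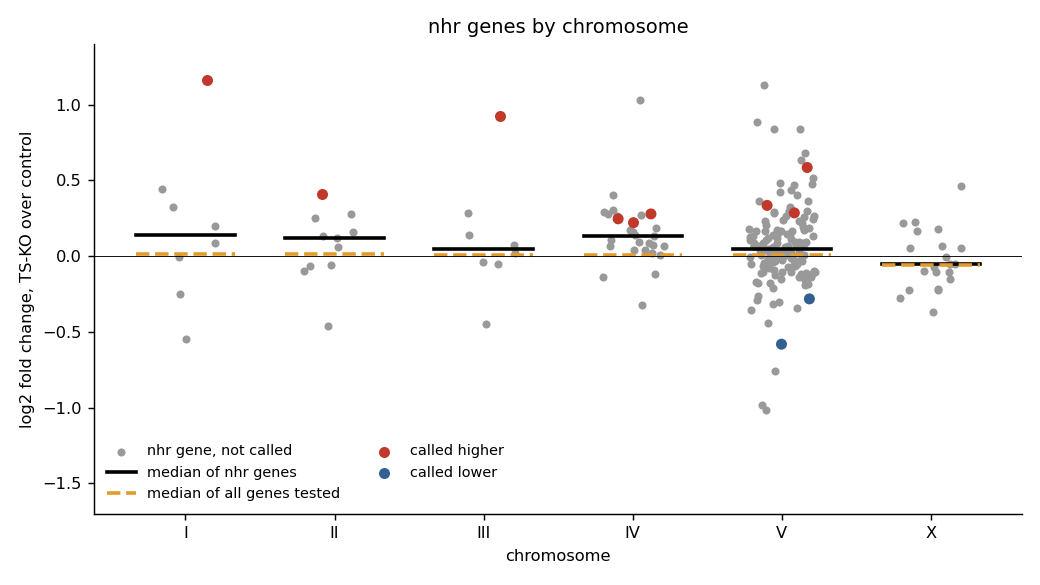
Log2 fold change (pbrm-1(TS-KO) over pbrm-1(control)) of the nhr genes on each chromosome, with the median of the nhr genes (solid) and of all genes tested on that chromosome (dashed). The median of the 28 genes on IV, 0.14, lies above that of all genes there, and on X the lines coincide near -0.05.

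Neighboring members shared one direction in some runs and not in others. With members joined where no more than 50 kb separated them, 110 lay in 16 runs of at least 4, 13 of them on chromosome V. The log2 fold changes had one sign throughout in 4 of the 16 runs and both signs in 12. They were positive for all 5 members of a run from 1613892 to 1645298 on chromosome IV and all 4 of one from 8961878 to 8974939 on V, and negative for all 4 from 7340403 to 7349641 on V and all 5 from 12663837 to 12808318 on X. Most of these differences were small, with medians of 0.074, 0.051, -0.12 and -0.10, and none of these genes was called by edgeR or DESeq2 (1 had an unadjusted p under 0.05). In a run of 15 between 451451 and 536247 on V, 13 were positive, with a median of 0.11. Called genes numbered 3 of the 110 members within the runs and 8 of the 112 outside them, against 7.72% of all genes tested. The median log2 fold changes of these groups were 0.045 and 0.072, and a difference between them was not tested. The longest run held 19 members between 2192485 and 2296977 on chromosome V. In it nhr-225 was called lower while 10 of the 19 were positive, with a median of 0.006. A run of 10 members between 3844429 and 3908452 on V had 9 positive log2 fold changes, from -0.18 to 0.88 with a median of 0.35, and included nhr-158, nhr-159, nhr-185 and nhr-189. None of the 10 was called in edgeR's test, where 3 had an unadjusted p under 0.05, and 1 was called by DESeq2 and 3 by limma-voom. On chromosome IV, the run of 5 from 9664360 to 9764499 holds nhr-34, nhr-38 and nhr-97, whose log2 fold changes were 0.28, 1.03 and -0.12. Only uniquely mapped reads were counted, so near-identical stretches of neighbors may be underrepresented.

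The spread of the day means exceeded the strain difference in many members. Each day mean rests on 2 libraries, so this spread includes differences between single libraries and is not a measure of culture day alone. The SD of the 5 day means, each averaged over both strains, was larger than the strain difference on the log2 scale in 105 of 222 members. The matching share of all genes was not computed. The median of this SD was 0.13 for members and 0.13 for all genes tested. This SD was largest for nhr-159, nhr-185 and nhr-38, at 0.98, 0.81 and 0.66 on the log2 scale. nhr-159 had 2.31, 0.371, 1.92, 1.39 and 0.183 CPM in pbrm-1(TS-KO), against 1.49, 0.541, 0.359, 0.602 and 0.408 CPM in pbrm-1(control). nhr-185, in the same run, had 2.48, 0.676, 3.67, 4.10 and 0.960 CPM in pbrm-1(TS-KO), against 3.52, 1.11, 1.46, 1.48 and 0.907 CPM in pbrm-1(control). For both genes replicates 1, 5 and 6 of pbrm-1(TS-KO) and replicate 1 of pbrm-1(control) were high and the others low. nhr-38 had 0.298, 0.218, 0.864, 0.693 and 0.206 CPM in pbrm-1(TS-KO), against 0.253, 0.118, 0.263, 0.328 and 0.136 CPM in pbrm-1(control).

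The same libraries were high for receptors with known roles. nhr-6, the NR4A-type receptor needed for the spermatheca, had 42.5, 11.7, 40.8, 43.0 and 16.4 CPM in pbrm-1(TS-KO), against 41.2, 17.3, 22.6, 24.4 and 21.1 CPM in pbrm-1(control). Its log2 fold change of 0.28 had a standard error of 0.366 and did not pass the test (adjusted p = 0.678 in edgeR). nhr-31 had 188, 119, 188, 178 and 116 CPM in pbrm-1(TS-KO), against 175, 114.1, 123, 119 and 124 CPM in pbrm-1(control). nhr-40 had 128, 87.1, 141, 139 and 94.9 CPM in pbrm-1(TS-KO), against 125, 89.03, 97.8, 95.1 and 100.03 CPM in pbrm-1(control). nhr-62, which acts in the response to dietary restriction, had 12.4, 9.53, 14.9, 13.1 and 8.41 CPM in pbrm-1(TS-KO), against 12.8, 6.73, 9.998, 5.97 and 7.23 CPM in pbrm-1(control). On days 5 and 6 these genes were higher in pbrm-1(TS-KO), whereas on day 1 the 2 strains were close together and on days 4 and 7 both were low. acs-2, an acyl-CoA synthetase gene regulated by NHR-49, was high in the same libraries, with 49.95, 3.84, 116, 130.1 and 2.29 CPM in pbrm-1(TS-KO), against 106, 2.35, 16.2, 10.98 and 6.60 CPM in pbrm-1(control). Of the called genes, nhr-4 was also highest in replicates 1, 5 and 6 of pbrm-1(TS-KO) and, among the controls, in replicate 1, and nhr-36 was highest in the same pbrm-1(TS-KO) libraries only, whereas nhr-68, nhr-225 and nhr-34 did not follow this pattern. Some markers of the intestine were high in these libraries as well, and others were not. elt-2, the main GATA factor of the intestine, had 44.9, 22.7, 42.9, 45.1 and 23.8 CPM in pbrm-1(TS-KO), against 33.9, 22.2, 27.7, 25.3 and 26.1 CPM in pbrm-1(control). pept-1, an intestinal peptide transporter, had 153, 73.1, 121, 119.9 and 76.3 CPM in pbrm-1(TS-KO), against 149, 92.3, 95.5, 88.3 and 100.28 CPM in pbrm-1(control). Within pbrm-1(TS-KO), act-5 and ifc-2 were also higher in replicates 1, 5 and 6 than in replicates 4 and 7. By contrast, ges-1, elt-7 and ifb-2 were lower there, with 82.4, 100.4, 77.0, 81.7 and 95.9 CPM for ges-1. The markers vha-6 and aex-5 followed neither order. Neither elt-2 nor pept-1 was called (edgeR adjusted p = 0.265 and 0.917), and the part of these markers in the levels of these receptors was not tested.

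**Figure D5:**
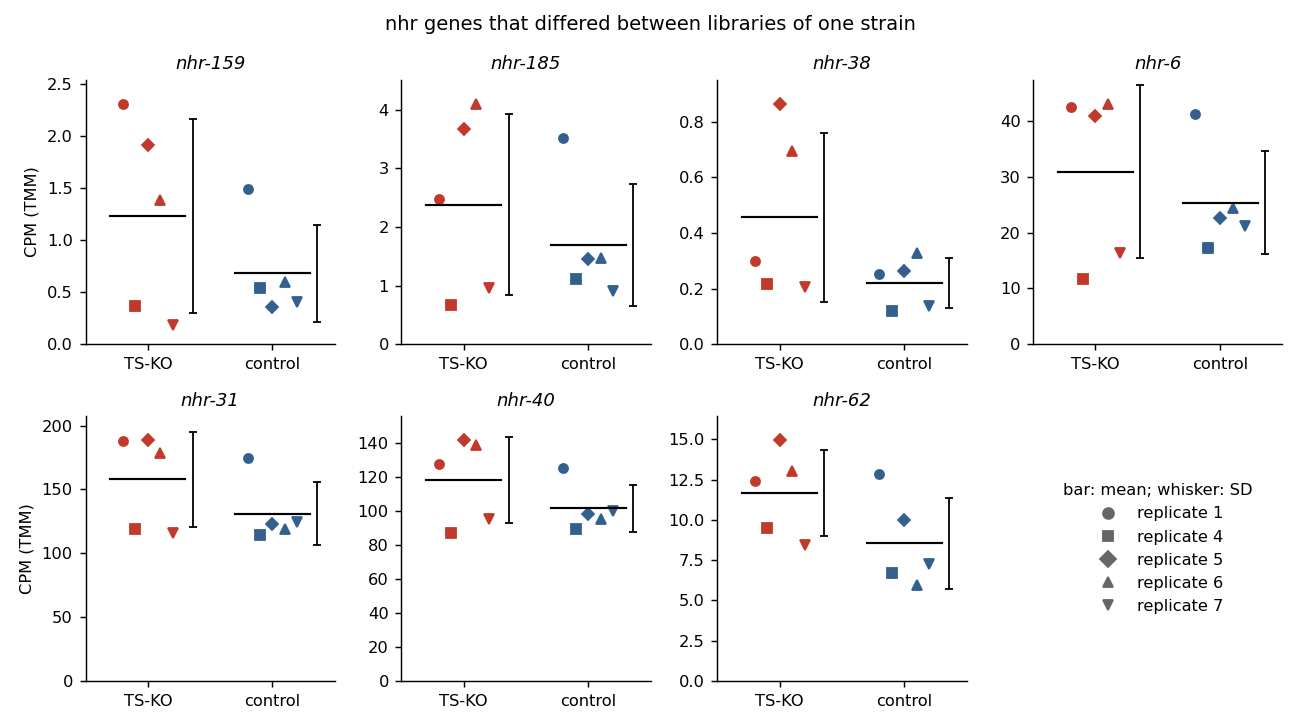
Level of 7 nhr genes (CPM after TMM, axes from 0) in each pbrm-1(TS-KO) library and each pbrm-1(control) library, with symbols for replicate number, a bar at the mean and a whisker of 1 SD (n = 5). For nhr-6, nhr-31 and nhr-40, replicates 1, 5 and 6 of pbrm-1(TS-KO) and replicate 1 of pbrm-1(control) lie well above replicates 4 and 7 of pbrm-1(TS-KO).

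The other parts of the pathway were examined from 3 lists. Of the 7 nuclear receptors outside the rule, daf-12, fax-1, odr-7, sex-1, unc-55, nhr-23 and nhr-25, none was called in edgeR's test or any alternative, 6 had negative log2 fold changes, and the median was -0.11, or -0.04 without control replicate 5. In edgeR 0 of the 7 had an unadjusted p under 0.05. nhr-23, a molting regulator, had 18.4 CPM in control replicate 5 and 6.78 to 8.88 CPM in the other 9 libraries, and its log2 fold change was -0.28 with that library and 0.07 without it. None of 10 coregulator and ligand synthesis genes was called in any fit, 2 had an unadjusted p under 0.05 in edgeR, and mdt-15, the Mediator subunit that binds NHR-49, had a log2 fold change of -0.02.

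Of 11 known targets of these receptors, 3 were called, all higher, but 1 without both libraries of replicate 6 and 2 without both of replicate 5. Over all genes tested, 7.72% were called, but this list was chosen with earlier results of these data known. The paper had already picked acdh-1 from these libraries as upregulated in pbrm-1(TS-KO). The count is therefore a description and not independent evidence about the targets. acdh-1, the acyl-CoA dehydrogenase of the propionate shunt and a target of NHR-10 and NHR-68, had 13.5, 16.3, 30.95, 31.6 and 36.6 CPM in pbrm-1(TS-KO), against 1.56, 1.86, 4.45, 0.438 and 0.657 CPM in pbrm-1(control). The strains were far apart, with a log2 fold change of 3.84 (edgeR adjusted p = 0.00168). alh-8, also of the shunt, had 4881 ± 355 CPM in pbrm-1(TS-KO) and 3644 ± 375 CPM in pbrm-1(control) (SD, n = 5 each), and was called (log2 fold change 0.42, adjusted p = 0.00673). The other shunt genes hphd-1, ech-6 and hach-1 had log2 fold changes of 0.37, 0.05 and -0.001 (adjusted p = 0.117, 0.624 and 0.993), and hphd-1 was called with the replicate block in edgeR (adjusted p = 0.0405). Of the desaturase genes regulated by NHR-49 and NHR-80, fat-6 was called (log2 fold change 0.33, adjusted p = 0.0151), whereas fat-5 and fat-7 were not (0.04 and 0.19). The targets of NHR-114 in the methionine cycle, sams-1 and metr-1, had log2 fold changes of 0.15 and 0.01 and were not called. The 9 intestinal marker genes summed to 3412 to 3681 CPM in pbrm-1(TS-KO), against 2799 to 3188 CPM in pbrm-1(control), and their part in the levels of nhr-68 and these targets was not tested. The markers of this list did not move together. Both called ones, ifb-2 and vha-6, were higher (log2 fold changes 0.39 and 0.44), whereas act-5, ges-1 and ifc-2 had values of -0.40, -0.24 and -0.16 and did not pass the test (adjusted p = 0.199, 0.147 and 0.282).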

How the data were processed

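The authors trimmed the reads of 10 polyA-selected libraries, mapped them with STAR 2.5.2b, counted uniquely mapped reads in exons with featureCounts of Subread 1.5.2, and deposited the raw counts per gene. Their methods give the assembly as WBcel325, which was read as WBcel235. Whether counting used strand was not given in the sources used here, and the kit is not named as directional. Gene names and positions came from the Ensembl annotation of WBcel235.

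All 10 columns were used. Strains were compared in R 4.3.3 with edgeR 4.0.16 (TMM, filterByExpr, quasi-likelihood F test, no covariate, Benjamini-Hochberg adjustment over all genes tested, threshold 0.05). Standard errors are approximate, being the log2 fold change divided by the root of F. Alternatives were DESeq2 1.42.0, RLE size factors, no filter, at least 10 counts in every library, limma-voom (limma 3.58.1) with sample quality weights, a replicate block in edgeR and in DESeq2, and fits without each library or pair. The edgeR step was tested on simulated data. Both strains were cultured side by side on each day, so equal replicate numbers pair libraries. The correlations of the paired deviations from the strain means were 0.505, 0.283, 0.124, -0.051 and 0.351 for replicates 1, 4, 5, 6 and 7. The main fit does not use this pairing, and its p-values set the strain difference against the spread between libraries of one strain. Of the 222 members, 60 share exonic bases with another gene, 32 of them with a protein-coding gene on the opposite strand.

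Named genes were all called members, those called with DESeq2 or the block only, a list with known roles, the 5 highest per kilobase, the 3 nearest above the threshold and the 3 with the largest spread between days. The members and lists were chosen with earlier results of these data known. Sequences were not used here.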

Additional observations from a re-analysis of the deposited data

Results flagged for a closer look

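Among 100 groups of 5 libraries (50 named nhr genes in each strain), 7 held a library far from the other 4 by Dixon's criterion. Chance gives about 1 in 20 groups where genes are not chosen by their values. Here some were, nhr-159 and nhr-185 for their spread between days, so the 7 cannot be weighed against that rate. In pbrm-1(TS-KO) replicate 1, nhr-34 had 155 CPM, against 132 to 137 CPM in the other pbrm-1(TS-KO) libraries, and nhr-85 had 13.6 CPM, against 11.1 to 11.3 CPM. In pbrm-1(TS-KO) replicate 7, nhr-91 had 16.4 CPM, against 14.5 to 15.02 CPM. In pbrm-1(control) replicate 5, nhr-91 had 30.8 CPM, against 15.8 to 17.3 CPM in the other control libraries. This library was also high for some of the epidermal markers, sqt-3, dpy-10, dpy-7 and mlt-10 among them. In pbrm-1(control) replicate 1, nhr-31 had 175 CPM, against 114.1 to 124 CPM, nhr-159 had 1.49 CPM, against 0.359 to 0.602 CPM, and nhr-185 had 3.52 CPM, against 0.907 to 1.48 CPM. These last 3 genes were also high in replicates 1, 5 and 6 of pbrm-1(TS-KO).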

How the results depend on the processing

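The median log2 fold change of the members was positive in every fit, between 0.056 and 0.078. The numbers of members called moved more. Those called higher numbered 9 in edgeR, 3 with no filter on low counts, 16 with DESeq2, 15 with DESeq2 and the replicate block, and 33 with limma-voom. Those called lower numbered 2 in edgeR, 1 with no filter, 4 with the replicate block in edgeR, 5 with DESeq2 and 14 with limma-voom. Over all genes, 1299 were called in edgeR, 1826 with the replicate block, 1923 with DESeq2, 971 with no filter and 2899 with limma-voom. Fits without a library or a pair called 1 to 11 members higher, 1 to 5 lower, 1 to 4 of the 11 known targets and 408 to 1204 genes in all (811 without pbrm-1(TS-KO) replicate 5, and 781, 746 and 529 without both libraries of replicates 1, 4 and 5), and the fits without both libraries of replicate 5 or of replicate 6 called 1 member higher and 1 lower. Other nuclear receptors and cofactors had 0 calls throughout. Among the named members, the sign turned for nhr-41 and nhr-80, both near zero. The nhr-41 log2 fold change was 0.0087, with -0.0347 to 0.0441 in the fits without 1 library, -0.0392 without both of replicate 6 and -0.0032 without both of replicate 7. The nhr-80 log2 fold change was 0.0214, with -0.0171 to 0.0604 without 1 library and -0.0226 without both of replicate 5. Outside the family, the sign of 7 named genes turned, none of them called in edgeR. Without 1 library, nhr-23 log2 fold change was -0.3783 to 0.0713 (0.0422 without both of replicate 5), mdt-15 log2 fold change -0.0526 to 0.0157 (0.0080 without both of replicate 5) and pept-1 log2 fold change -0.1087 to 0.2088 (-0.0229 and -0.0443 without both of replicates 5 and 6). The hach-1 log2 fold change was -0.0322 to 0.0356, with 0.0002 by RLE, 0.0006 with no filter, 0.0475 by limma-voom and 0.0425 without both of replicate 7. The fat-5 log2 fold change was -0.1083 to 0.2197, with -0.0055, -0.0605 and -0.0569 without both of replicates 4, 6 and 7, and fat-7 log2 fold change -0.2100 to 0.2999, with -0.0878 by limma-voom and -0.1374 without both of replicate 7. The metr-1 log2 fold change was -0.0999 to 0.1854, with -0.0069 and -0.0067 with the replicate block in edgeR and in DESeq2, and -0.0242 and -0.1550 without both of replicates 5 and 6. With the replicate block in edgeR, nhr-36 and nhr-170 lost their calls (adjusted p = 0.0624 and 0.0680), and 6 members not called without it were called. With the block in DESeq2, nhr-174, nhr-9, nhr-104 and nhr-170 were not called (adjusted p = 0.0934, 0.0857, 0.0849 and 0.0925). The cause of these changes was not tested. The 28 members under 1 CPM rest on few counts, which limits what can be said of them.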

Other observations

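The 45 nhr genes below the count minimum had few or no counts in these larvae. Of them, 2 had no counts in any library, and the highest count of any was 51, for nhr-218 in pbrm-1(control) replicate 5. nhr-218 had 6, 5, 6, 1 and 8 counts in pbrm-1(TS-KO) replicates 1, 4, 5, 6 and 7, against 6, 23, 51, 10 and 5 counts in pbrm-1(control). It is named after its values were seen. nhr-111 had 0, 2, 0, 0 and 1 counts in pbrm-1(TS-KO), against 4, 0, 9, 1 and 1 counts in pbrm-1(control).

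Among the 222 members, the highest of the 10 libraries was a pbrm-1(TS-KO) library for 158 and a pbrm-1(control) library for 64. The split over all genes was not computed, so it is not known whether it is particular to these members. pbrm-1(TS-KO) replicates 4 and 1 held the highest value for 47 and 40 members.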
